A study of Bubalus bubalis with 6 samples.

Results

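Tubulins are the building blocks of microtubules, and their transcripts were measured here in cultured water buffalo (Bubalus bubalis) cells labelled as intramuscular adipocytes, the fat cells between muscle fibres. The genes of interest were 10 alpha- and beta-tubulin genes (TUBA1A, TUBA1B, TUBA1C, TUBA4A, TUBB, TUBB2A, TUBB2B, TUBB3, TUBB4B and TUBB6), and every gene model of the deposited table that carries one of these names, in upper or lower case, was taken. That gave 14 models of 19476, under 9 of the 10 names: 4 models are named TUBA1C, 3 are named TUBB, 7 names have 1 model each, and TUBB2B was not matched. Of the 14 models, 12 passed the minimum for testing (1 FPKM in 3 samples), and each of these 12 was at or above 1 FPKM in all 6 samples.

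Cells of 3 samples received an adenovirus for lncFABP4, a long non-coding RNA (genotype given as lncFABP4 overexpress), and cells of 3 samples an adenovirus for EGFP, a green fluorescent protein that served as control (genotype given as WT). Both groups were transduced for 48 hours, then held in adipogenic inducing medium for 48 hours and collected on day 4. Polyadenylated RNA was sequenced on a DNBSEQ platform. Nothing in the labels ties replicates to separate animals or cultures, and plates were set up as triplicate wells; the p-values therefore cover sample spread that could be technical.

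Microtubules are hollow polymers of dimers, each made of an alpha- and a beta-tubulin. Mammals encode several isotypes of either subunit, which differ mostly in their C-terminal tails, and cells adjust tubulin messenger RNA to the pool of free dimers through TTC5, a factor that binds tubulin as it leaves the ribosome. In fat cell formation from mouse precursor lines, tubulin synthesis is known to fall as the spread precursor rounds up. Values are given as FPKM, a level scaled to model length and library, so that levels of different genes can be set side by side.

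Across the table, 2958 of 11064 tested models passed limma at an adjusted p of 0.05, which is 26.7%; 16.5% were called higher and 10.2% lower after lncFABP4 transduction. Non-overlapping groups were seen in 43.9% of the models, 26.6% higher and 17.2% lower. The calls numbered 3419 without lncFABP4 replicate 1, 1780 without lncFABP4 replicate 2 and 1634 without lncFABP4 replicate 3. They numbered 1884 without EGFP replicate 1, 2681 without EGFP replicate 2 and 1771 without EGFP replicate 3. Of the calls, 61.8% were higher, and that share was 52.4% with TMM, 50.8% with quantile and 48.5% with median-of-ratios scaling. No model is named lncFABP4, so the transduced RNA was not read directly. FABP4, the fatty acid binding protein gene of that name, was at 6505, 10588 and 12003 FPKM in lncFABP4 samples, against 154, 149 and 197 FPKM in EGFP samples. Column totals were 349458 to 360920 FPKM in lncFABP4 samples and 340165 to 353465 FPKM in EGFP samples. The number of reads behind a value is unknown. The mature fat cell genes CEBPA and ADIPOQ did not exceed 0.190 FPKM in any sample and no model is named PLIN1, whereas PPARG averaged 25.2 ± 1.77 FPKM in lncFABP4 samples and 12.2 ± 0.527 FPKM in EGFP samples (SD, n = 3 each), so how mature the cells were is not known.

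Most tubulin transcripts were more abundant in the lncFABP4 samples, 1 was less abundant, and the most abundant beta-tubulin showed no difference that the test could call. Of the 12 tested models, 7 rose (TUBA1A, TUBA1B, 2 models of TUBA1C, TUBB4B, TUBB6 and TUBB3), 1 fell (TUBA4A) and 4 were not called, against 16.5% of all tested models called higher and 10.2% lower. No overlap between groups was seen for 9 of the 12, of which 8 were higher, against 26.6% of all tested models that were higher without overlap. The median log2 change was 0.35 over these 12 models and 0.05 over all 11064. In bulk samples, a change in the number of cells of a type and a change in RNA per cell cannot be told apart.

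**Figure D1:**
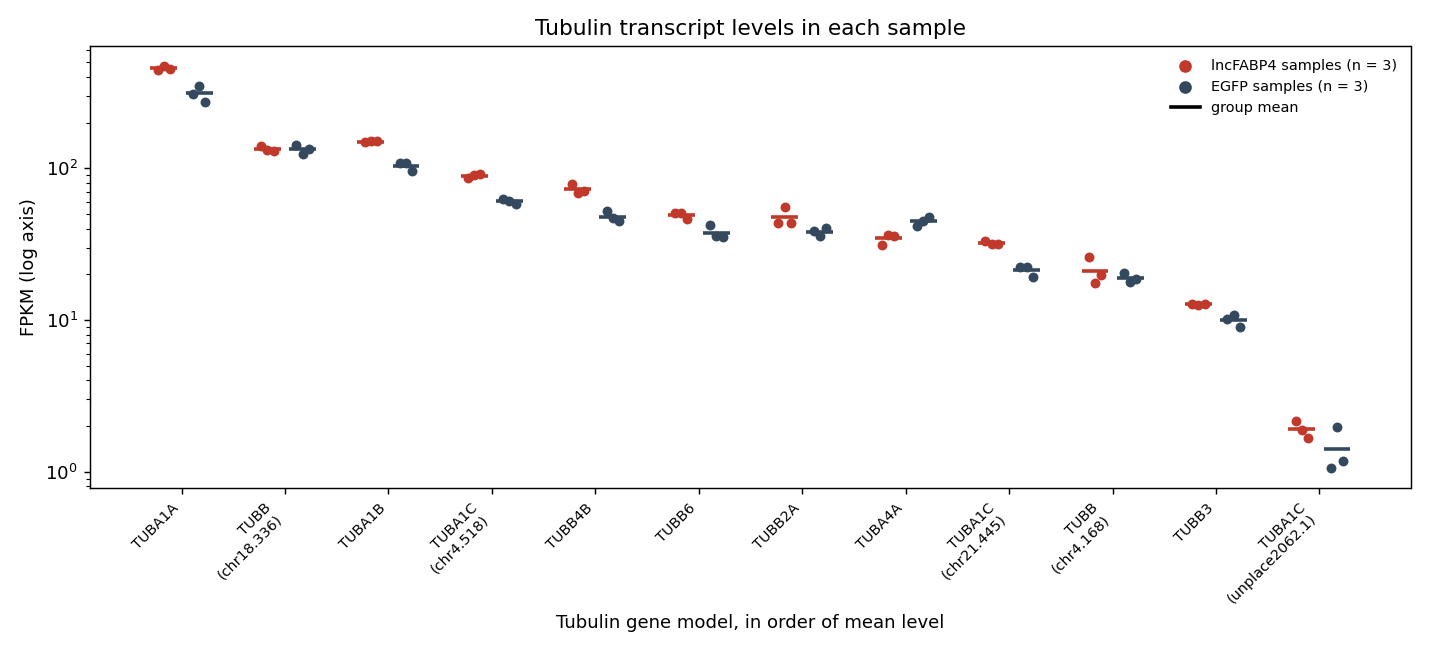
FPKM of the 12 tested tubulin models on a log axis, lncFABP4 samples in red and EGFP samples in dark blue, with 1 point per sample and a bar at each group mean (n = 3 each); names in brackets are the ends of model identifiers. The red points lie above the dark ones for TUBA1A, TUBA1B, TUBB4B and others, below them for TUBA4A, and among them for both TUBB models.

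TUBA1A, the alpha-tubulin best known from developing neurons and also present in fibroblast-like cells, was the most abundant tubulin in both groups and ranked 119 by mean level among the 19476 models. It stood at 441, 472 and 452 FPKM in lncFABP4 samples, against 310.4, 351 and 274 FPKM in EGFP samples. The lowest lncFABP4 sample lay well above the highest EGFP sample, and the EGFP samples were the more spread. The means were 455 ± 15.7 FPKM in lncFABP4 samples and 312 ± 38.6 FPKM in EGFP samples (SD, n = 3 each), 1.46-fold, and the log2 change was 0.55 ± 0.09 (SE; limma adjusted p = 0.00455).

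TUBA1B, the alpha-tubulin expressed in nearly every cell type, was at 147.9, 150.6 and 151.1 FPKM in lncFABP4 samples, against 107.9, 108.4 and 96.2 FPKM in EGFP samples. The 3 lncFABP4 samples differed little among themselves (coefficient of variation 1.15%) and none came near the EGFP range. The ratio of the means was 1.44, and the log2 change was 0.52 ± 0.07 (SE; limma adjusted p = 0.00196).

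TUBA1C, another widely expressed alpha isotype, has 4 models. The most abundant, evm.model.chr4.518, held 86.3, 90.2 and 91.9 FPKM in lncFABP4 samples, against 62.3, 61.2 and 58.0 FPKM in EGFP samples, 1.48-fold (log2 change 0.56 ± 0.07 SE; limma adjusted p = 0.00115). Its identifier is one below that of the TUBA1A model (evm.model.chr4.519), which is in turn one below that of TUBA1B (evm.model.chr4.520). These 3 genes encode near-identical proteins, and whether their models share reads was not tested. A second TUBA1C model, evm.model.chr21.445, named from a mouse protein entry, was lower in level and changed by a similar amount: 33.3, 31.8 and 31.9 FPKM in lncFABP4 samples, against 22.4, 22.2 and 19.3 FPKM in EGFP samples (log2 change 0.58 ± 0.08 SE; limma adjusted p = 0.00208).

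The other 2 TUBA1C models were near the minimum or under it. On an unplaced sequence, evm.model.unplace2062.1 had 2.17, 1.88 and 1.66 FPKM in lncFABP4 samples and 1.06, 1.98 and 1.18 FPKM in EGFP samples; the groups overlapped and the model was not called (log2 change 0.29 ± 0.15 SE; limma adjusted p = 0.197). Without EGFP replicate 2, the highest of its group, it was called (log2 change 0.45, limma adjusted p = 0.0355). The other, evm.model.chr19.177, was at 0.673 to 0.838 FPKM in lncFABP4 samples and 0.397 to 0.621 FPKM in EGFP samples and was not tested. Summed over its 4 models, TUBA1C reached 124 ± 1.86 FPKM in lncFABP4 samples and 83.7 ± 3.999 FPKM in EGFP samples (SD, n = 3 each).

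TUBA4A was the one tubulin among these genes that fell. It encodes an alpha-tubulin that lacks the C-terminal tyrosine of most other alpha isotypes and is abundant in platelets, brain and muscle. Its level was 31.2, 36.2 and 36.0 FPKM in lncFABP4 samples, against 41.8, 45.2 and 47.4 FPKM in EGFP samples. All 3 lncFABP4 samples lay below all 3 EGFP samples. The means, 34.5 ± 2.79 FPKM in lncFABP4 samples and 44.8 ± 2.86 FPKM in EGFP samples (SD, n = 3 each), differed by -0.37 ± 0.09 in the log2 fit (SE; limma adjusted p = 0.0160). Without EGFP replicate 3, which held the highest value, the change was -0.33 and was not called (limma adjusted p = 0.0643).

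Among beta-tubulins, TUBB4B showed the largest rise. It is a widely expressed isotype that is also a main beta-tubulin of cilia. Its values were 79.0, 68.8 and 70.8 FPKM in lncFABP4 samples, against 52.6, 46.7 and 44.6 FPKM in EGFP samples. The groups were clearly apart, with means of 72.9 ± 5.42 FPKM in lncFABP4 samples and 48.0 ± 4.12 FPKM in EGFP samples (SD, n = 3 each). The fold was 1.52 and the log2 change was 0.59 ± 0.09 (SE; limma adjusted p = 0.00275).

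TUBB6, a beta isotype expressed in many non-neuronal tissues, was at 51.0, 50.6 and 46.6 FPKM in lncFABP4 samples, against 42.0, 35.9 and 35.2 FPKM in EGFP samples. The groups did not overlap (log2 change 0.38 ± 0.09 SE; limma adjusted p = 0.0150). Leaving out lncFABP4 replicate 2 or EGFP replicate 3 ended the call (limma adjusted p = 0.0536 and 0.0598).

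TUBB3, the class III beta-tubulin commonly used as a marker of neurons, was the least abundant member with a call. It had 12.8, 12.6 and 12.8 FPKM in lncFABP4 samples, which were nearly equal, against 10.1, 10.9 and 9.05 FPKM in EGFP samples. The log2 change was 0.32 ± 0.09 (SE; limma adjusted p = 0.0266). This call was lost without any 1 of 4 libraries (lncFABP4 replicates 2 and 3, EGFP replicates 1 and 3; limma adjusted p from 0.0699 to 0.0937) and with median-of-ratios scaling (0.0570). Of 9 matched neuronal and glial markers, 8 were under 1 FPKM in every sample, and the list summed to 3.51 to 5.16 FPKM in lncFABP4 samples and 3.85 to 5.803 FPKM in EGFP samples, most of it from SNAP25. Outside this list, MAP1A, MAP1B, DCLK1 and STMN2, also best known from neurons, had group means of 26.7 to 50.3 FPKM. MAPT, MAP2 and DCX averaged under 1 FPKM in both groups.

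TUBB2A, an isotype abundant in brain and present in many other tissues, lay higher in every lncFABP4 sample without passing the test. It stood at 43.3, 55.9 and 43.9 FPKM in lncFABP4 samples and 38.5, 35.7 and 40.3 FPKM in EGFP samples (log2 change 0.31 ± 0.11 SE; limma adjusted p = 0.0695). Replicate 2 was the high one of its group. Without lncFABP4 replicate 1, TUBB2A was called (log2 change 0.37, limma adjusted p = 0.0441).

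TUBB is the name of the class I beta-tubulin of most cell types. Its abundant model, evm.model.chr18.336, carries that name from a frog protein entry, so which buffalo beta-tubulin it is was not established here. It was the most abundant beta-tubulin in both groups. The values were 140.8, 131.0 and 129 FPKM in lncFABP4 samples and 142, 124 and 135 FPKM in EGFP samples, so the groups overlapped throughout. With means of 134 ± 6.27 FPKM in lncFABP4 samples and 134 ± 9.42 FPKM in EGFP samples (SD, n = 3 each), the log2 change was 0.00 ± 0.08 (SE; limma adjusted p = 0.982). Its sign moved with the setting, from -0.09 to 0.05, and it was called in none of the alternatives run.

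A second TUBB model, evm.model.chr4.168, named from a macaque entry, was at 26.0, 17.6 and 19.9 FPKM in lncFABP4 samples and 20.6, 17.8 and 18.5 FPKM in EGFP samples, with overlap and no call (log2 change 0.14 ± 0.14 SE; limma adjusted p = 0.481). The third, evm.model.chr13.267, did not exceed 0.0747 FPKM in any sample and was not tested. Summed over the 3 models, TUBB was at 155 ± 10.4 FPKM in lncFABP4 samples and 153 ± 10.8 FPKM in EGFP samples (SD, n = 3 each).

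**Figure D2:**
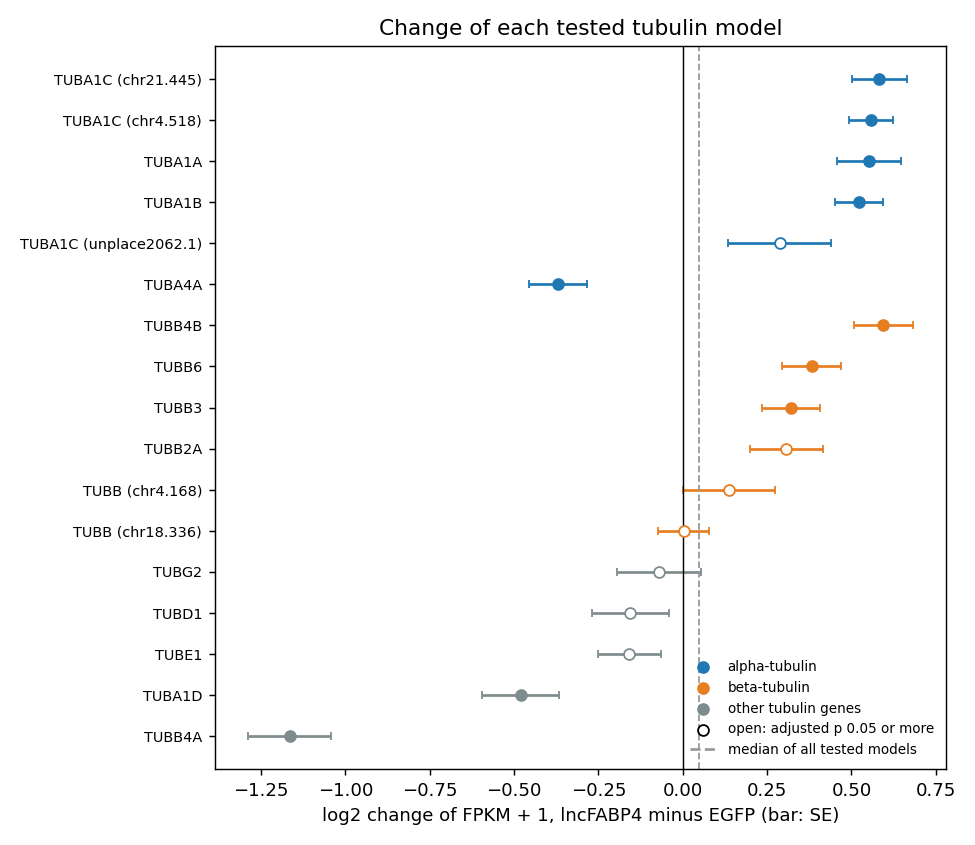
log2 change of FPKM + 1, lncFABP4 minus EGFP, for each tested tubulin model, with the SE as a bar (3 samples per group); filled points passed an adjusted p of 0.05 and open ones did not. The alpha models run from 0.58 to -0.37, the beta models from 0.59 to 0.00, and the other tubulin genes lie at or below -0.07, with TUBB4A at -1.17.

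The 7 called rises ran from 0.32 for TUBB3 and 0.38 for TUBB6 to 0.59 for TUBB4B (log2). The 5 models with the largest rises (TUBB4B, the chr21.445 and chr4.518 models of TUBA1C, TUBA1A and TUBA1B) lay between 0.52 and 0.59 (log2), with SE values of 0.07 to 0.09; differences between models were not tested. By size of change they ranked 907 to 1233 among the 11064 tested models, and the abundant TUBB model ranked 10964. The ratio of TUBA1A to TUBA1B was 3.04 ± 0.0847 in lncFABP4 samples and 2.99 ± 0.217 in EGFP samples (SD, n = 3 each), with overlap between the groups.

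Other ratios restate the changes above and are given as levels with no test. Since TUBA4A was lower and TUBA1A higher without overlap, their ratio had to separate the groups. TUBA4A over TUBA1A was 0.0708, 0.0766 and 0.0795 in lncFABP4 samples, against 0.135, 0.129 and 0.173 in EGFP samples. TUBB4B over the abundant TUBB model was 0.561, 0.526 and 0.548 in lncFABP4 samples, against 0.370, 0.378 and 0.331 in EGFP samples. These ratios were chosen with the changes known.

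Set by level, the order of the isotypes changed little. In lncFABP4 samples it ran TUBA1A, TUBA1B, TUBB (chr18.336), TUBA1C (chr4.518), TUBB4B, TUBB6, TUBB2A, TUBA4A, TUBA1C (chr21.445), TUBB (chr4.168) and TUBB3; neighbours overlapped for TUBB6 and TUBB2A, and for TUBA4A and the chr21.445 model. In EGFP samples TUBB (chr18.336) stood above TUBA1B, and TUBA4A came directly after TUBB4B, with which it overlapped. TUBB2A and TUBB6 overlapped there too, as did the chr21.445 model of TUBA1C and the chr4.168 model of TUBB.

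Summed FPKM of the alpha models was 743, 784 and 766 in lncFABP4 samples, against 546, 590.2 and 496 in EGFP samples, a ratio of means of 1.40. The beta models summed to 353, 337 and 323 FPKM in lncFABP4 samples, against 306, 270.4 and 283 FPKM in EGFP samples, a ratio of 1.18. Neither sum overlapped between the groups, and no test was made on these sums. The alpha sum was mostly TUBA1A, TUBA1B and the chr4.518 model of TUBA1C. Each was already higher without overlap, so the separation of the alpha sum restates these changes. Together the 14 models took 0.304% to 0.321% of the column total in lncFABP4 samples and 0.220% to 0.253% in EGFP samples. The alpha sum divided by the beta sum was 2.10, 2.33 and 2.37 in lncFABP4 samples and 1.79, 2.18 and 1.76 in EGFP samples, which overlapped.

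Within the alpha pool, TUBA1A made up 59.6% ± 0.601 in lncFABP4 samples and 57.1% ± 2.17 in EGFP samples (SD, n = 3 each), and TUBA4A 4.51% ± 0.263 in lncFABP4 samples and 8.29% ± 1.10 in EGFP samples. The TUBA4A share did not overlap between the groups. In the beta pool the abundant TUBB model supplied 39.6% ± 0.588 in lncFABP4 samples and 46.6% ± 1.03 in EGFP samples. TUBB4B supplied 21.6% ± 1.00 in lncFABP4 samples and 16.7% ± 0.834 in EGFP samples. Shares of a pool depend on each other, and protein was not measured.

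**Figure D3:**
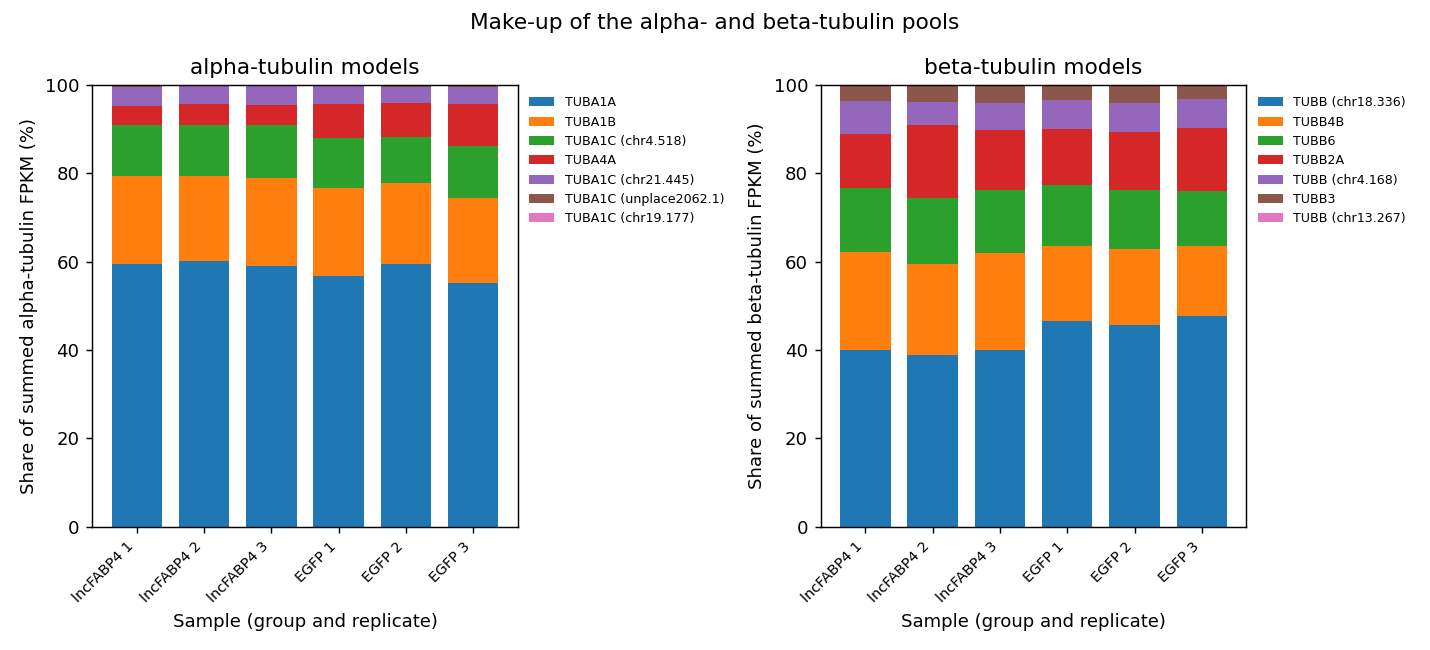
Share of each model in the summed FPKM of the alpha-tubulin models (left) and of the beta-tubulin models (right), in percent, with 1 stacked bar per sample, lncFABP4 samples first. The TUBA4A band is 4.21% to 4.70% of the alpha pool in lncFABP4 samples and 7.64% to 9.56% in EGFP samples, and the band of the chr18.336 TUBB model is narrower in the lncFABP4 bars.

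Of 13 further tubulin family genes, 8 were matched and 5 tested. Of these 5, 2 fell, 0 rose and 3 were not called, against 10.2% of all tested models called lower and 16.5% higher. TUBB4A, a beta-tubulin best known from brain and myelin-forming cells, had 7.53, 5.36 and 5.38 FPKM in lncFABP4 samples, against 14.7, 14.2 and 15.3 FPKM in EGFP samples. The groups were far apart. The log2 change was -1.17 ± 0.12 (SE; limma adjusted p = 0.000765), and the call was kept in all 20 alternatives. TUBB4A over TUBB4B was 0.0831 ± 0.0106 in lncFABP4 samples and 0.309 ± 0.0319 in EGFP samples (SD, n = 3 each), a separation fixed by the opposite changes of the 2 genes.

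TUBA1D, an alpha-tubulin named from a cattle entry, is next in number to TUBA4A (evm.model.chr2.1259 and evm.model.chr2.1258) and was lower as well. It was at 1.64, 1.30 and 1.62 FPKM in lncFABP4 samples, against 2.11, 2.78 and 2.66 FPKM in EGFP samples (log2 change -0.48 ± 0.11 SE; limma adjusted p = 0.0170). Without lncFABP4 replicate 2 or EGFP replicate 3 the call was lost (limma adjusted p = 0.0613 and 0.0635). Whether reads were shared between these 2 models is not known. TUBG2, a gamma-tubulin of the microtubule organising centre, and TUBD1 and TUBE1, the delta- and epsilon-tubulins of centrioles, were not called (log2 change -0.07, -0.15 and -0.16).

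Genes that act on tubulin were read from 7 lists, the family list just described among them. Of their 102 tested models, 22 rose, 3 fell and 77 were not called, against 16.5% of all tested models called higher and 10.2% lower. In either direction 24.5% were called, against 26.7% of the whole table. The same whole-table shares stand behind the counts of the single lists below, each of which holds few models. The median log2 change over them was 0.13, against 0.05 over all tested models. With median-of-ratios scaling 14 rose. Without lncFABP4 replicate 2 or 3 or EGFP replicate 3 the number that rose was 14, 11 and 13.

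In the list of tubulin folding and autoregulation 5 of 15 models rose and 0 fell (median log2 change 0.08). The abundant model of TBCB, a cofactor that folds alpha-tubulin, was at 22.1, 21.6 and 21.4 FPKM in lncFABP4 samples, against 11.8, 12.6 and 12.2 FPKM in EGFP samples, and rose 1.78-fold (log2 change 0.78, limma adjusted p = 0.000419), while a second tested model of that name, near 1 FPKM, was not called. TBCE, which works with TBCB on alpha-tubulin, rose by 0.43, and the prefoldin subunits PFDN6 and VBP1, which hand unfolded tubulin and actin to the chaperonin, rose by 0.63 and 0.51 (log2). The fifth was TBCD, a cofactor of beta-tubulin (0.27), named after its values were seen. The prefoldin genes PFDN1 and PFDN4 and the abundant model of PFDN2 were not called (log2 change 0.08, -0.01 and 0.13). TTC5 was at 5.50 FPKM in lncFABP4 samples and 5.89 FPKM in EGFP samples and was not called (log2 change -0.09, limma adjusted p = 0.560).

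Gamma-tubulin ring complex and augmin genes, which start new microtubules, rose in 4 of 16 models and fell in 0 (median log2 change 0.16). The augmin subunits HAUS8 and HAUS7 rose by 0.83 and 0.67 and kept their calls in all 20 alternatives. HAUS1, HAUS2, HAUS3, HAUS5 and HAUS6 were not called (log2 change 0.14, 0.08, 0.17, 0.20 and 0.33). NEDD1, which recruits the ring complex, and TUBGCP2, one of its core subunits, rose by 0.34 and 0.27. Leaving out any of 5 of the 6 libraries ended the calls of NEDD1 (limma adjusted p from 0.0514 to 0.110) and TUBGCP2 (0.0645 to 0.0776), median-of-ratios scaling ended both, no filter ended that of NEDD1 (0.0510), and TMM and quantile scaling ended that of TUBGCP2.

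Tubulin modifying enzymes had 1 of 13 models higher and 0 lower (median log2 change 0.12). The one that rose was TTLL1, part of a polyglutamylase (log2 change 0.31, limma adjusted p = 0.0249), a call lost without any of 5 of the 6 libraries. Microtubule stabilisers and plus-end proteins rose in 3 of 15 models and fell in 1 (median log2 change 0.13): MAP1B rose by 0.44, 1 model of MAP1S by 0.44 and the plus-end protein CLIP1 by 0.30, and MAP7D3 fell by 0.53 on the log2 scale. TMM scaling, median-of-ratios scaling and no filter on low values ended the 3 rises, quantile scaling left 1, and 2 models fell with quantile scaling or no filter. The 3 rises were also lost after leaving out lncFABP4 replicate 2, lncFABP4 replicate 3 or EGFP replicate 3. Among destabilising and severing proteins 1 of 9 rose, STMN1, or stathmin, which binds free tubulin dimers (15.2 FPKM in lncFABP4 samples, 9.74 FPKM in EGFP samples, log2 change 0.59, limma adjusted p = 0.00189).

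Kinesin and dynein motor genes rose in 8 of 29 models and fell in 0 (median log2 change 0.20). DCTN5, a subunit of the dynein partner dynactin, stood at 79.3 FPKM in lncFABP4 samples and 47.2 FPKM in EGFP samples (log2 change 0.74, limma adjusted p = 0.000452). The dynactin genes DCTN1, DCTN2, DCTN4 and DCTN6 were not called (log2 change 0.20, -0.08, 0.83 and -0.01). Both models of NDE1, a dynein regulator with roles in mitosis, rose (0.73 and 0.52), as did the light chain gene DYNLL2 (0.42). Without lncFABP4 replicate 3, 4 motor models rose.

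**Figure D4:**
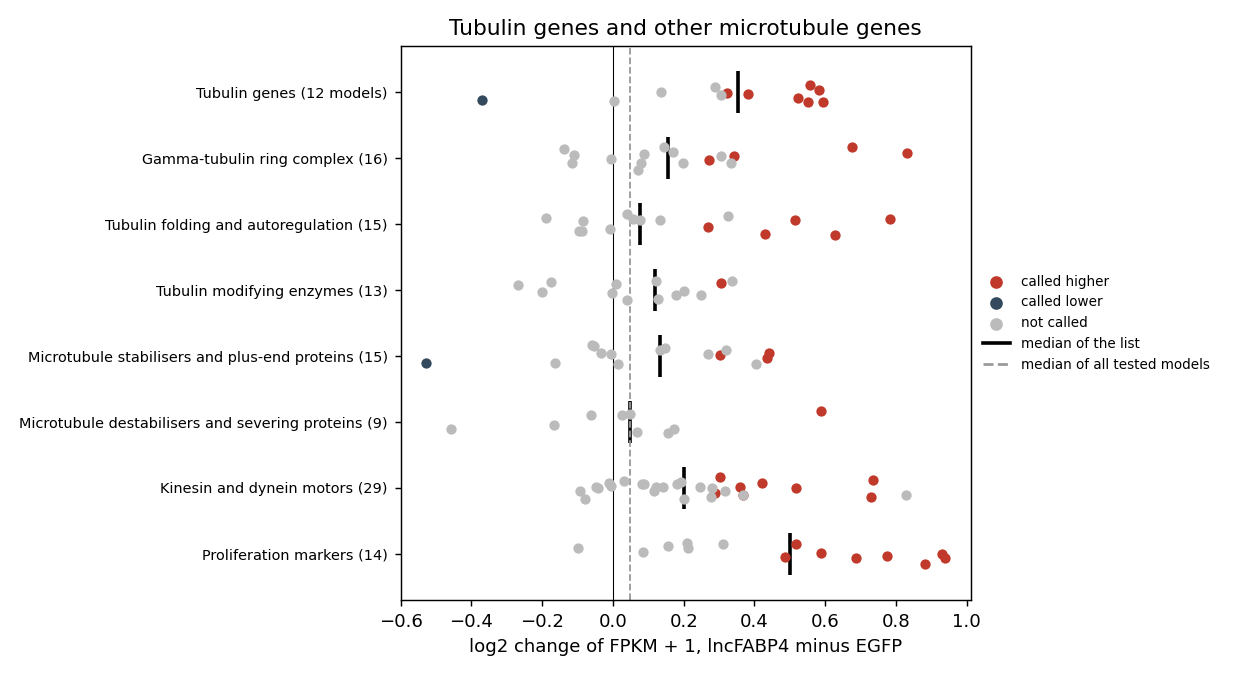
log2 change of FPKM + 1, lncFABP4 minus EGFP, for each tested model of the tubulin genes and of the other lists (number of tested models in brackets), with the list median as a black bar and the median of all 11064 tested models as a dashed line. Most tubulin models lie right of the dashed line, with a median of 0.35, and the medians of the 6 microtubule lists lie between 0.05 and 0.20.

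Of 14 tested models of proliferation markers, 8 rose, 0 fell and 6 were not called (median log2 change 0.50), against 16.5% of all tested models called higher and 10.2% lower, shares that also stand behind the other marker counts here. MCM5, a replication licensing gene, averaged 41.6 FPKM in lncFABP4 samples and 44.6 FPKM in EGFP samples and was not called (log2 change -0.10, limma adjusted p = 0.368). The list summed to 225 to 242 FPKM in lncFABP4 samples and 160.0 to 165 FPKM in EGFP samples, and TYMS of thymidylate synthesis supplied most of it (137 FPKM in lncFABP4 samples, 84.4 FPKM in EGFP samples). The 8 that rose were models of TYMS, PCNA, MCM2, MCM3, TOP2A and CCNA2 and both models of MCM6, by 0.49 to 0.94 (log2). MKI67, CCNB1 and BUB1 were under the minimum for testing and were higher in lncFABP4 samples without overlap. Of all tested models, 26.6% were higher without overlap. MKI67 was at 0.611, 1.73 and 1.41 FPKM in lncFABP4 samples and 0.354 to 0.501 FPKM in EGFP samples. PLK1 averaged 6.33 FPKM in lncFABP4 samples and 5.39 FPKM in EGFP samples and was not called. CDK1, AURKA and both models of CCNB2 were not called either (log2 change 0.16, 0.21, 0.31 and 0.09). Smooth muscle and pericyte markers rose in 3 of 5 models. They summed to 168 to 235 FPKM in lncFABP4 samples and 87.0 to 144 FPKM in EGFP samples, mostly ACTA2. TAGLN and RGS5 were not matched and MYH11 stayed near 1 FPKM. The called model of CSPG4 passed the minimum through the lncFABP4 samples (1.43 to 1.98 FPKM, against 0.869 to 1.17 FPKM in EGFP samples). Mesenchymal progenitor markers fell in 5 of 8 models. Adipocyte markers rose in 3 of 5 tested models (FABP4, PPARG and LIPE, a lipase) and fell in 1, LPL, another lipase. LPL passed the minimum through the EGFP samples (2.34 to 3.60 FPKM, against 0.903 to 1.18 FPKM in lncFABP4 samples). FABP4, 58.1-fold higher, had the largest change of all tested models. Whether reads of the transduced RNA fell on the FABP4 model was not tested. The part of these genes in the tubulin values was not tested.

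Other cell types left little signal, though some of their tested markers were called. The endothelial marker VWF rose (log2 change 0.34). The skeletal muscle markers DES and MYH3 and the immune marker CD163 fell (log2 change -0.63, -0.46 and -0.56), and CD68 was not called. Endothelial markers summed to 4.47 to 4.64 FPKM in lncFABP4 samples and 3.14 to 3.55 FPKM in EGFP samples, nearly all from VWF, with the other 5 of 6 under 1 FPKM. Skeletal muscle markers summed to 2.27 to 3.13 FPKM in lncFABP4 samples and 4.52 to 5.13 FPKM in EGFP samples, and MYOD1, MYOG and PAX7 were not matched. Immune cell markers summed to 14.0 to 16.7 FPKM in lncFABP4 samples and 17.5 to 20.2 FPKM in EGFP samples, from CD68 and CD163, while PTPRC did not exceed 0.0113 FPKM.

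By profile over the 6 samples, the named models most like TUBA1A were 1 of 2 named MCM6 (a replication licensing gene), PTPRF (a receptor-type phosphatase) and PRR13. Likeness was the root mean square difference of log2(FPKM + 1) after centring each model on its own mean, and it was 0.0314, 0.0375 and 0.0471 for the 3 genes. The MCM6 model was near the minimum for testing, at 2.73, 3.21 and 2.93 FPKM in lncFABP4 samples and 1.68, 1.97 and 1.29 FPKM in EGFP samples. PTPRF stood at 69.5, 73.2 and 76.1 FPKM in lncFABP4 samples and 49.4, 56.4 and 44.4 FPKM in EGFP samples. As the closest of all named tested models were picked, small differences were built in. For the chr18.336 model of TUBB they were RAB40C, RPP25L and PPP1R18 (0.0165, 0.0201 and 0.0234), each with overlapping groups.

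**Figure D5:**
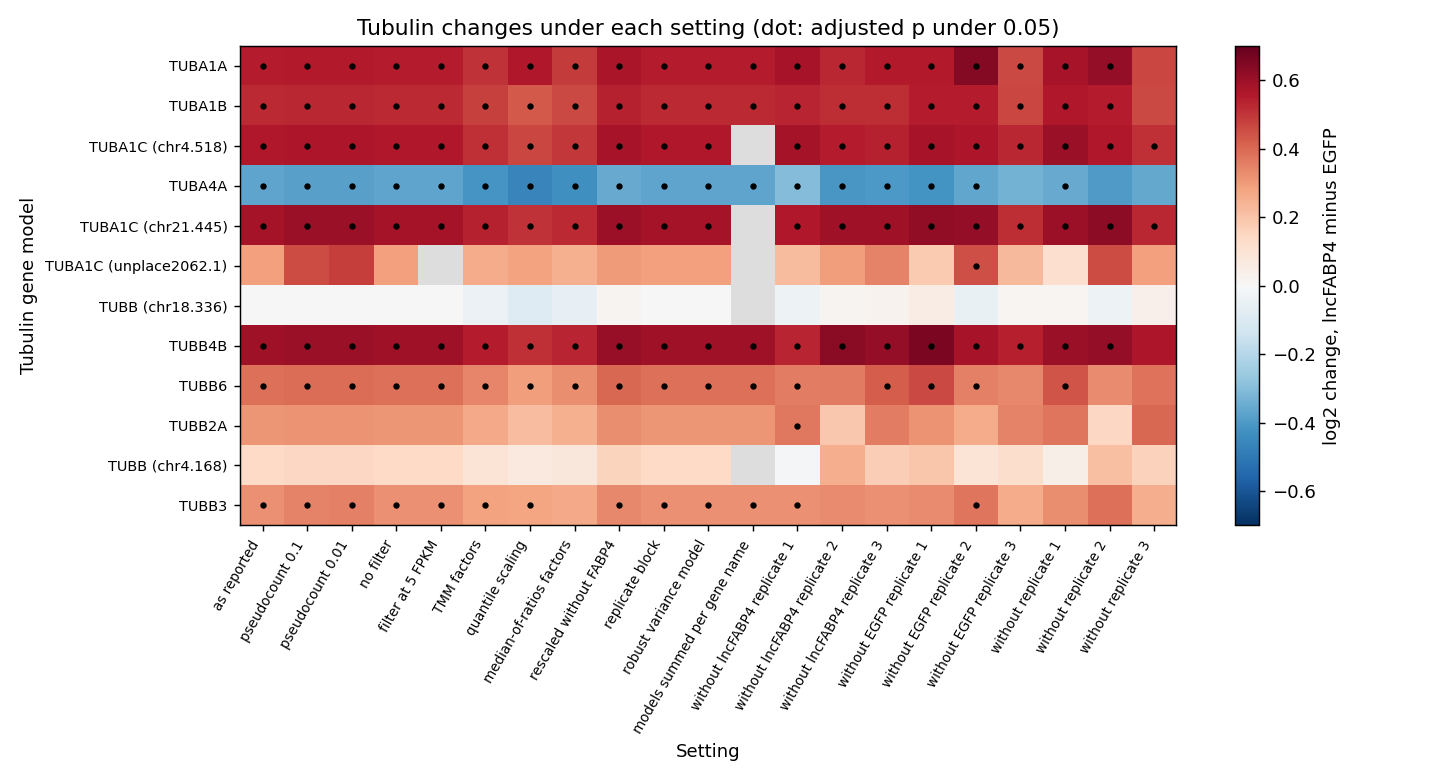
log2 change, lncFABP4 minus EGFP, of the 12 tested tubulin models (down the page) as reported and under the 20 alternatives (across), red for higher and blue for lower; a dot marks an adjusted p under 0.05 and grey cells have no value. TUBA4A is blue and TUBA1A, TUBA1B and TUBB4B are red in every column, and the dots thin out where replicate 3 of both groups is left out.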

How the data were processed

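The authors deposited 1 value per gene model for each of 6 samples of polyadenylated RNA. The submitters' processing notes name HISAT2 and StringTie. The table gives no unit, and the deposited values were read as FPKM because they are decimals with unequal column totals. Genome build: not given in the sources used here; no coordinates or sequences are printed. Gene names are the authors' protein matches, and near-identical tubulins can share reads. Steps of single reads among models under 0.3 FPKM gave estimated depths, relative to EGFP replicate 1, of 0.950, 0.937 and 0.923 for lncFABP4 replicates 1 to 3 and 1.01 and 0.981 for EGFP replicates 2 and 3.

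Models reaching 1 FPKM in 3 or more samples were tested with limma 3.58.1 (R 4.3.3) on log2(FPKM + 1), lncFABP4 minus EGFP, with a mean-variance trend, two-sided, with Benjamini-Hochberg adjustment over 11064 models at 0.05 and no replicate block. This scale understates changes of low genes. Tested on simulated data of 11064 models (lncFABP4 against EGFP), the fit recovered 16% of 50 models changed 1.25-fold, 68% of 50 changed 1.5-fold and 90% of 50 changed 2-fold. Those changes were made on the FPKM + 1 scale, in models above a set level. Far fewer models were changed there than were called in the data, and the adjusted p depends on that number. The recovery rates therefore need not hold for the data.

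The tubulin genes, lists and alternatives were chosen with earlier results of these data known. Named were every model of the tubulin names, up to 4 called models per microtubule list with the smallest adjusted p, tested tubulin family genes, and the 3 named models most like the most abundant alpha and beta models. Uncalled prefoldin, augmin and dynactin genes were named after their values were seen. Alternatives were pseudocounts of 0.1 and 0.01, no filter or 5 FPKM, TMM (unweighted), quantile and median-of-ratios scaling, rescaling without FABP4, a replicate block, a robust variance model, models summed per name, and samples left out.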

Additional observations from a re-analysis of the deposited data

How the results depend on the processing

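Across the 20 alternatives the 8 called tubulin models kept their direction wherever they were fitted. Tubulin models that rose numbered 7 in every alternative with all 6 samples except median-of-ratios scaling and models summed per name (6 each). The former ended the TUBB3 call, and the latter merged the 2 called TUBA1C models into 1 entry and lost no call. TUBA4A fell in every alternative with all 6 samples. Leaving out a library, or a replicate number of both groups, gave 2 to 8 models that rose and 0 to 1 that fell. In the same fits the whole table had 312 to 1974 models higher and 203 to 1445 lower, and the microtubule lists 7 to 28 higher and 1 to 5 lower. The lowest counts came without replicate 3 of both groups, which leaves 2 samples per group; there TUBA1C (evm.model.chr4.518 and evm.model.chr21.445) stayed called, and TUBA1A, TUBA1B and TUBB4B had limma adjusted p of 0.0691, 0.0571 and 0.0562. Median-of-ratios scaling gave 14 microtubule list models higher, and no filter gave 6 lower; the cause was not tested. The log2 ratio of the summed beta-tubulin level was 0.15 with quantile scaling, against 0.24 as reported. With the replicate number as a block, 2061 models were higher and 1275 lower, with 7 tubulin models higher and 1 lower; same-numbered samples deviated together with r = 0.181, 0.291 and -0.0774 across models, and lncFABP4 replicate 1 correlated best with EGFP replicate 3 (0.199), so the numbers were not taken as pairs. Depth per value is unknown, which limits statements on models near 1 FPKM.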

Other observations

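Several tubulin and microtubule genes were under the minimum for testing and are given as levels with no test; these, and the genes set beside them, were picked after their values were seen. TUBA8 was at 0.220 to 0.294 FPKM in lncFABP4 samples and 0.340 to 0.480 FPKM in EGFP samples. TUBA3D was at 0.705 to 0.957 FPKM in lncFABP4 samples and 0.509 to 0.667 FPKM in EGFP samples. TUBB1, the beta-tubulin of platelets, did not exceed 0.0599 FPKM in any sample. Of the microtubule genes best known from neurons, MAPT, MAP2 and DCX averaged 0.163, 0.244 and 0.0668 FPKM in lncFABP4 samples and 0.570, 0.222 and 0.0965 FPKM in EGFP samples. Others of that kind passed the minimum and were abundant: MAP1A, MAP1B, DCLK1 and STMN2 averaged 48.0, 37.7, 33.3 and 44.6 FPKM in lncFABP4 samples and 48.2, 27.8, 26.7 and 50.3 FPKM in EGFP samples. KIF2C, a kinesin that takes microtubules apart in mitosis, was at 0.982, 2.27 and 2.26 FPKM in lncFABP4 samples and 0.592 to 0.710 FPKM in EGFP samples. The groups did not overlap, and 26.6% of all tested models were higher without overlap.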
